A study of Mus musculus with 36 samples.

Results

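The potassium channel genes of the mouse brain were followed across 6 brain regions and 2 genotypes. They were taken by symbol: every gene of the gene table whose symbol starts with Kcn, except Kcnab3, Kcnc1, Kcne2 and Kcnj8. This gave 90 genes, out of 94 with such a symbol and 19025 genes in the table. Most encode pore-forming subunits, and the Kcnab, Kcne, Kcnip and Kcnmb genes encode auxiliary subunits that bind to a pore. No measured value entered the choice. The samples were brain tissue of C57 mice aged 6 to 7 weeks. Knock-in (KI) mice carry a synonymous base change in Maoa, the gene of monoamine oxidase A, named rs1137070 in the series title, and wild-type (WT) mice do not. With 3 libraries per genotype and region there were 36 libraries in all. The labels give the regions as abbreviations, read here as follows: the midbrain regions VTA and SN as ventral tegmental area and substantia nigra, STR as striatum, Nac as nucleus accumbens, PFc as prefrontal cortex and HP as hippocampus. No source used here says whether libraries came from separate animals, so p-values measure the spread between libraries, which may be technical. How the knock-in line was made, and the sex of the animals, are not given in the labels.

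Potassium channels let potassium ions leave or enter a cell and so set its resting potential, end its action potentials and time its firing. Voltage-gated (Kv) channels open on depolarisation. Inward rectifiers (Kir) and K2P leak channels hold the resting potential, and SK and BK channels open when calcium rises. Neurons of each brain region carry their own mix, while glia rely largely on Kir4.1, the product of Kcnj10.

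Libraries held between 15145631 and 18863503 estimated counts, or 16.41 ± 0.69 M in KI and 17.88 ± 0.47 M in WT (SD, n = 18 each). The potassium channel genes took 0.320% to 0.612% of the counts in KI libraries and 0.422% to 0.655% in WT libraries. Lists of region markers went against the label of 8 libraries: KI HP 2, KI Nac 1, KI Nac 2, KI STR 3, KI SN 1, KI SN 2, WT Nac 2 and WT VTA 3. The library labelled KI HP 2, for example, had a mean striatal marker level of 8.98 on the log2(CPM + 1) scale, against 3.64 to 4.39 in the other HP libraries, and a hippocampal marker level of 2.37, against 5.75 to 6.33. WT VTA 3 had a striatal level of 8.40 and a midbrain dopamine level of 2.69. KI PFc 1 fitted its label but also carried striatal markers, at 7.30, where the remaining PFc libraries had 4.47 to 5.38. WT SN 2 likewise had midbrain dopamine markers, at 5.82, but also cortical markers, at 5.95, where WT SN 1 and WT SN 3 had 4.04 and 3.87. Neither KI PFc 1 nor WT SN 2 is among the 8. Results are therefore given with all 36 libraries and again with the 28 that remain without those 8. Maoa itself was not called between genotypes in any region by edgeR's quasi-likelihood test (log2 fold change, KI over WT, from -0.36 to 0.46). Its KI libraries lay above its WT libraries in 3 regions. In STR, Maoa had 61.9, 56.2 and 64.3 CPM (counts scaled to the same total in each library) in KI, against 42.5, 47.0 and 44.4 CPM in WT libraries. In HP it had 37.7, 48.1 and 40.5 CPM in KI and 34.0, 35.0 and 36.7 CPM in WT, and in VTA 97.4, 80.6 and 87.9 CPM in KI and 72.1, 76.6 and 52.8 CPM in WT.

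Between genes, levels were compared per length by the authors' TPM, the transcript abundance scaled to gene length and a common library total, with no test. All 90 genes had counts in at least 1 library, but the 5 lowest had very few in total: 2 for Kcnk16, 4 for Kcnj1, 8 for Kcna7, 9 for Kcnk18 and 12 for Kcne1. By subfamily, 2 groups of auxiliary subunits of voltage-gated channels stood highest. The median over WT libraries was 214 TPM for the 2 Kv beta genes and 81.2 TPM for the 4 KChIP genes. The 4 MinK-related (Kcne) genes, also auxiliary subunits, had a median of only 0.86 TPM. Kcnab2, a beta subunit of Kv1 channels, averaged 319 TPM in KI and 329 TPM in WT libraries, the highest level of the 90 genes. Kcnip2, which binds Kv4 pores, averaged 135 TPM in KI and 123 TPM in WT libraries and ran from 10.1 to 261 TPM over the 36 libraries.

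Among pore-forming genes, the medians over WT libraries were 50.3 TPM for the 3 Kv3 genes, 30.7 TPM for the 3 Kv4 genes and 23.0 TPM for the 5 Kv7 genes. The highest Kv3 member was Kcnc4, with 40.8 TPM in KI and 55.3 TPM in WT libraries. The highest Kv4 member was Kcnd2, with 47.1 TPM in KI and 49.6 TPM in WT libraries. Kcnj10, the glial Kir4.1, averaged 120 TPM in KI and 136 TPM in WT libraries and led the 14 Kir genes, whose median was 11.4 TPM. Kcnk1, a leak channel subunit, averaged 102 TPM in KI and 114 TPM in WT libraries, far above the median of 4.72 TPM for the 14 K2P genes. Kcnh3, of the EAG family, averaged 53.6 TPM in KI and 48.1 TPM in WT libraries and ran from 1.26 to 156 TPM over the 36 libraries. Other leading members were Kcnn2 (35.3 TPM in KI, 36.8 TPM in WT) and Kcnt1 (17.0 TPM in KI, 20.3 TPM in WT). Kcnf1, a silent subunit that modifies Kv2 channels, averaged 40.8 TPM in KI and 55.2 TPM in WT libraries. Kcna6, of the Kv1 family, averaged 39.1 TPM in KI and 54.9 TPM in WT libraries. Kcnmb4, the neuronal BK beta subunit, averaged 120 TPM in KI and 103 TPM in WT libraries, in a subfamily with a median of 2.40 TPM. Kcne1l and Kcnrg led the lowest groups, with 20.3 TPM in KI and 15 TPM in WT libraries for Kcne1l, and 0.375 TPM in KI and 0.460 TPM in WT libraries for Kcnrg.

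**Figure D1:**
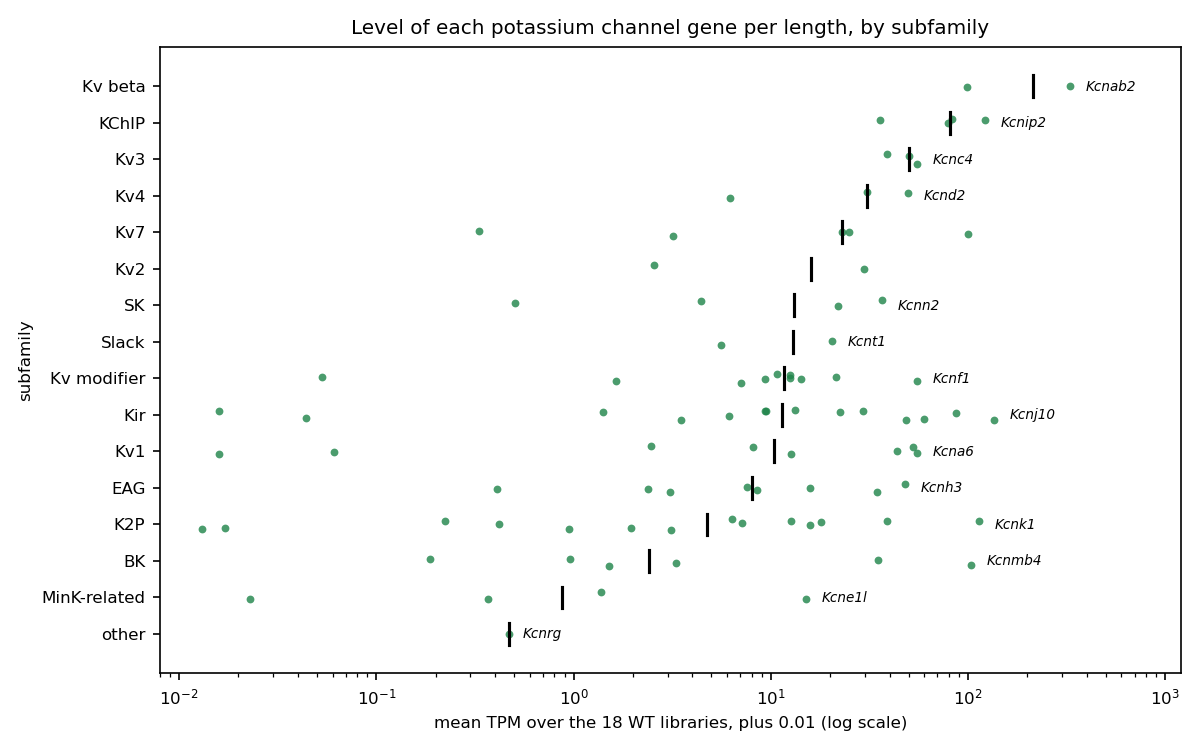
Mean TPM of each of the 90 potassium channel genes over the 18 WT libraries (points, log axis, 0.01 added), by subfamily, with the subfamily median (bar) and the highest member named for most. Kv beta and KChIP auxiliary subunits lie at the top and MinK-related subunits near the bottom, and most subfamilies span more than a factor of 10.

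Between libraries, levels were compared as CPM after trimmed-mean (TMM) normalisation. In WT mice, 48 of the 78 genes that passed the filter on low counts differed between the 6 regions (edgeR F test, adjusted p under 0.05), or 61.5%, beside 48.0% of all 15094 genes tested. Without WT Nac 2 and WT VTA 3, 69 of 78 did, or 88.5%, beside 70.0% of all genes. DESeq2 called 55 with all WT libraries, beside 56.3% of all genes. In KI mice 18 of 79 differed (22.8%, beside 12.6% of all genes), and 63 of 79 without the KI libraries that went against their labels (79.7%, beside 50.5%).

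HP was marked by high Kcng2, Kcnj6 and Kcnt2 and low Kcnj5 and Kcna5. Against the mean of the other WT regions, 18 genes were higher and 15 lower by edgeR, 42.3% of those tested, beside 34.4% of all genes. DESeq2 called 35, beside 38.1% of all genes, and edgeR without WT Nac 2 and WT VTA 3 called 44, or 56.4%, beside 45.9%. Kcng2, a silent subunit that modifies Kv2 channels, had 36.5, 25.5 and 27.0 CPM in WT HP and 0.931 to 8.62 CPM in the other WT libraries. No other WT library reached the HP level. The log2 difference was 2.89 (SE 0.359, edgeR adjusted p = 3.2e-05). The KI libraries HP 1 and HP 3 had 37.8 and 33.3 CPM of Kcng2, while KI HP 2, with its striatal markers, had 3.47 CPM. KI Nac 2 and KI SN 1, which carried hippocampal markers, had 32.8 and 31.3 CPM. Kcnj6, the G-protein-gated GIRK2 channel subunit, had 166, 199.6 and 187 CPM in WT HP, against 15.7 to 133 CPM in the other WT libraries (log2 difference 1.76, SE 0.28, edgeR adjusted p = 0.000246). The other named rises in HP were Kcnt2 (1.71), Kcng1 (1.44) and Kcnq5 (1.3). Kcnj5, the GIRK4 subunit, had 0.118, 0.466 and 0.226 CPM in WT HP and 0.280 to 6.57 CPM in the other WT libraries. This was the largest named fall, -3.43 on the log2 scale (SE 0.558, edgeR adjusted p = 0.000294). Kcna5 (-2.48), Kcnj12 (-1.42), Kcnh2 (-1.35) and Kcne1l (-1.32) were also lower in HP.

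PFc had 20 genes higher and 8 lower than the other WT regions, 35.9% of those tested, beside 28.5% of all genes, and without the 2 WT libraries 32 higher and 12 lower (56.4%, beside 42.5%). Kcnf1 had 317, 319 and 281 CPM in WT PFc, above every other WT library, which ran from 22.5 to 139 CPM (log2 difference 1.93, SE 0.434, edgeR adjusted p = 0.00468). Kcnv1, another silent subunit, had 149, 134 and 116 CPM there, against 4.70 to 86.6 CPM elsewhere in WT (2.02, SE 0.593, edgeR adjusted p = 0.0199). Kcnh7, an ERG channel gene, had 156, 105 and 105 CPM in WT PFc and 17.2 to 67.6 CPM in the other WT libraries (2.04, SE 0.202, edgeR adjusted p = 1.21e-05). The next highest WT libraries were HP 2 and HP 3. Kcna3 (2.10) and Kcnt2 (1.79) were the other named rises. Kcna3 was low throughout, at 0.110 to 6.95 CPM in WT libraries. Lower in PFc were Kcng4 (-2.60), Kcne1l (-1.99), Kcnj5 (-1.69), Kcnj14 (-1.36) and Kcnh2 (-1.10). By subfamily, without the 2 WT libraries, 4 of 5 Kv7 genes and 5 of 8 EAG genes were called higher in PFc by edgeR, beside 21.1% of all genes. In HP 6 of 9 silent Kv modifiers were, beside 24.0% of all genes. These subfamilies were chosen after their values were seen.

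STR was set apart by Kcnj13. This gene encodes Kir7.1, a channel known from the choroid plexus and other epithelia. Kcnj13 had 56.2, 86.7 and 74.2 CPM in WT STR and 0.374 to 8.62 CPM in the other WT libraries, a log2 difference of 5.64 (SE 0.488, edgeR adjusted p = 1.72e-06). The KI STR libraries had 66.7, 61.0 and 19.1 CPM of Kcnj13. Markers of choroid plexus and ependyma, 7 of 7 of which were found, summed to 3621 to 10600 CPM in KI STR and 11010 to 16400 CPM in WT STR, against 18.9 to 3086 CPM in the other groups. Their part in the Kcnj13 level was not tested. In all, 11 genes were higher and 10 lower in STR, 26.9% of those tested, beside 20.7% of all genes. Without the 2 WT libraries 21 were higher and 12 lower (42.3%, beside 30.2%). Kcnmb1 (1.74), Kcnj12 (1.03), Kcnh2 (0.97) and Kcnab1 (0.95) were the next rises. The named falls were Kcna3 (-2.47), Kcnc4 (-1.46), Kcnk9 (-1.28), Kcnj6 (-1.18) and Kcnj16 (-1.09).

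In Nac no gene passed edgeR's test against the other WT regions with all libraries, beside 1.2% of all genes. At an unadjusted p under 0.05 there were 17 (21.8%, beside 11.1% of all genes), and DESeq2 called 6, beside 2.85% of all genes. Without WT Nac 2 and WT VTA 3, 16 were higher and 17 lower (42.3%, beside 16.1% of all genes). The genes named here for Nac were chosen after their values were seen. Kcna5, a Kv1 channel gene, had 32.6 and 41.4 CPM in WT Nac 1 and WT Nac 3 but 4.86 CPM in WT Nac 2. Elsewhere in WT it exceeded 30 CPM only in WT VTA 3, the library with striatal markers, at 46.0 CPM. In KI, Kcna5 stood at 69.1 CPM in Nac 3 and at 70.5 and 74.3 CPM in HP 2 and SN 2, which carried striatal markers. The log2 difference of Nac over the other regions was 3.04 (SE 0.218, edgeR adjusted p = 2.44e-06) without the 2 WT libraries and 2.16 (SE 0.516, adjusted p = 0.0585) with them. Kcnj4 (1.88), Kcnn4 (1.68) and Kcnh4 (1.63) were also higher there, and Kcns3 (-2.43), Kcng4 (-1.78) and Kcnk4 (-1.74) lower.

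In WT the midbrain regions shared high Kcnj5 and Kcne1l. SN had 8 genes higher and 6 lower (17.9%, beside 7.91% of all genes), or 17 higher and 18 lower without the 2 WT libraries (44.9%, beside 27.3%), and VTA 3 higher and 7 lower (12.8%, beside 7.61%). Kcnj5 had 6.41, 4.88 and 4.62 CPM in WT VTA, with a log2 difference of 1.69 over the other regions (SE 0.35, edgeR adjusted p = 0.0135). In WT SN Kcnj5 had 4.94, 2.67 and 5.35 CPM (log2 difference 1.33, SE 0.358, edgeR adjusted p = 0.038). WT Nac 2, which carried midbrain markers, had the highest WT level of Kcnj5, 6.57 CPM. In KI the highest levels of Kcnj5 were in STR, at 8.57, 10.1 and 4.93 CPM, against 2.73, 3.27 and 3.09 CPM in KI VTA. Kcne1l, of the MinK-related subunits, had 23.3, 14.8 and 14 CPM in WT SN (1.49, SE 0.152, edgeR adjusted p = 0.000471) and 12.9, 14.3 and 11.5 CPM in WT VTA (0.99, SE 0.157, edgeR adjusted p = 0.00384). Kcnj16 (0.74) and Kcnk13 (0.65) were also higher in SN, and Kcng1 (-1.58), Kcng3 (-1.54), Kcns2 (-1.28) and Kcnab1 (-1.18) lower. In VTA Kcnk13 was higher (0.49), and Kcnt2 (-1.28), Kcnj3 (-1.11), Kcnh7 (-1.11), Kcnma1 (-0.90) and Kcnb2 (-0.69) were lower.

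Much of the VTA pattern was seen only once WT VTA 3 and WT Nac 2 were left out: 16 genes were then higher and 26 lower in VTA, 53.8% of those tested, beside 39.1% of all genes. The genes of this paragraph were chosen after their values were seen. Kcnj4, an inward rectifier gene (Kir2.3), had 7.11 and 4.56 CPM in WT VTA 1 and WT VTA 2 and 157 CPM in WT VTA 3. In KI VTA it had 5.52, 6.55 and 6.24 CPM. Forebrain levels were far higher, with 164, 175 and 154 CPM in WT PFc and 84.1, 98 and 83.3 CPM in WT HP. The log2 difference of VTA over the other WT regions was -4.13 (SE 0.828, edgeR adjusted p = 0.00165) without the 2 libraries and -0.73 (SE 1.05, adjusted p = 0.682) with them. Kcnh3 had 5.50, 3.86 and 90.2 CPM in WT VTA, against 186, 233 and 181 CPM in WT PFc (-4.29, SE 0.927, edgeR adjusted p = 0.00271 without the 2 libraries). Kcnip2 had 17.3, 23.1 and 161 CPM in WT VTA, against 267, 243 and 227 CPM in WT HP (-2.54, SE 0.444, edgeR adjusted p = 0.000665 without the 2 libraries). Kcng4, a silent Kv subunit, ran the other way. It had 54.8 and 36 CPM in WT VTA 1 and 2, 1.2 CPM in WT VTA 3, and 51.7, 36 and 59.4 CPM in WT SN. In WT PFc it had 6.06, 3.52 and 2.60 CPM. Without the 2 libraries, Kcng4 was higher in VTA by 1.88 (SE 0.245, edgeR adjusted p = 8.52e-05) and in SN by 2.01 (SE 0.214, edgeR adjusted p = 2.38e-05).

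The most abundant genes also differed in level by region, given here as CPM with no test. Kcnab2 had 1084, 401 and 1357 CPM in KI HP and 1001, 978 and 979 CPM in WT HP. Other WT libraries had 310.4 to 534 CPM of Kcnab2, and the low KI value is that of KI HP 2. Kcnj10, the glial channel, had 622, 416 and 517 CPM in KI VTA and 384, 496 and 335 CPM in WT VTA. In SN it had 143, 211 and 415 CPM in KI, where the first 2 libraries went against their label, and 499.8, 404 and 562 CPM in WT. In HP it had 253, 294 and 252 CPM in KI and 204, 220.2 and 187 CPM in WT, the genotypes not overlapping (edgeR log2 fold change 0.39, adjusted p = 0.313).

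**Figure D2:**
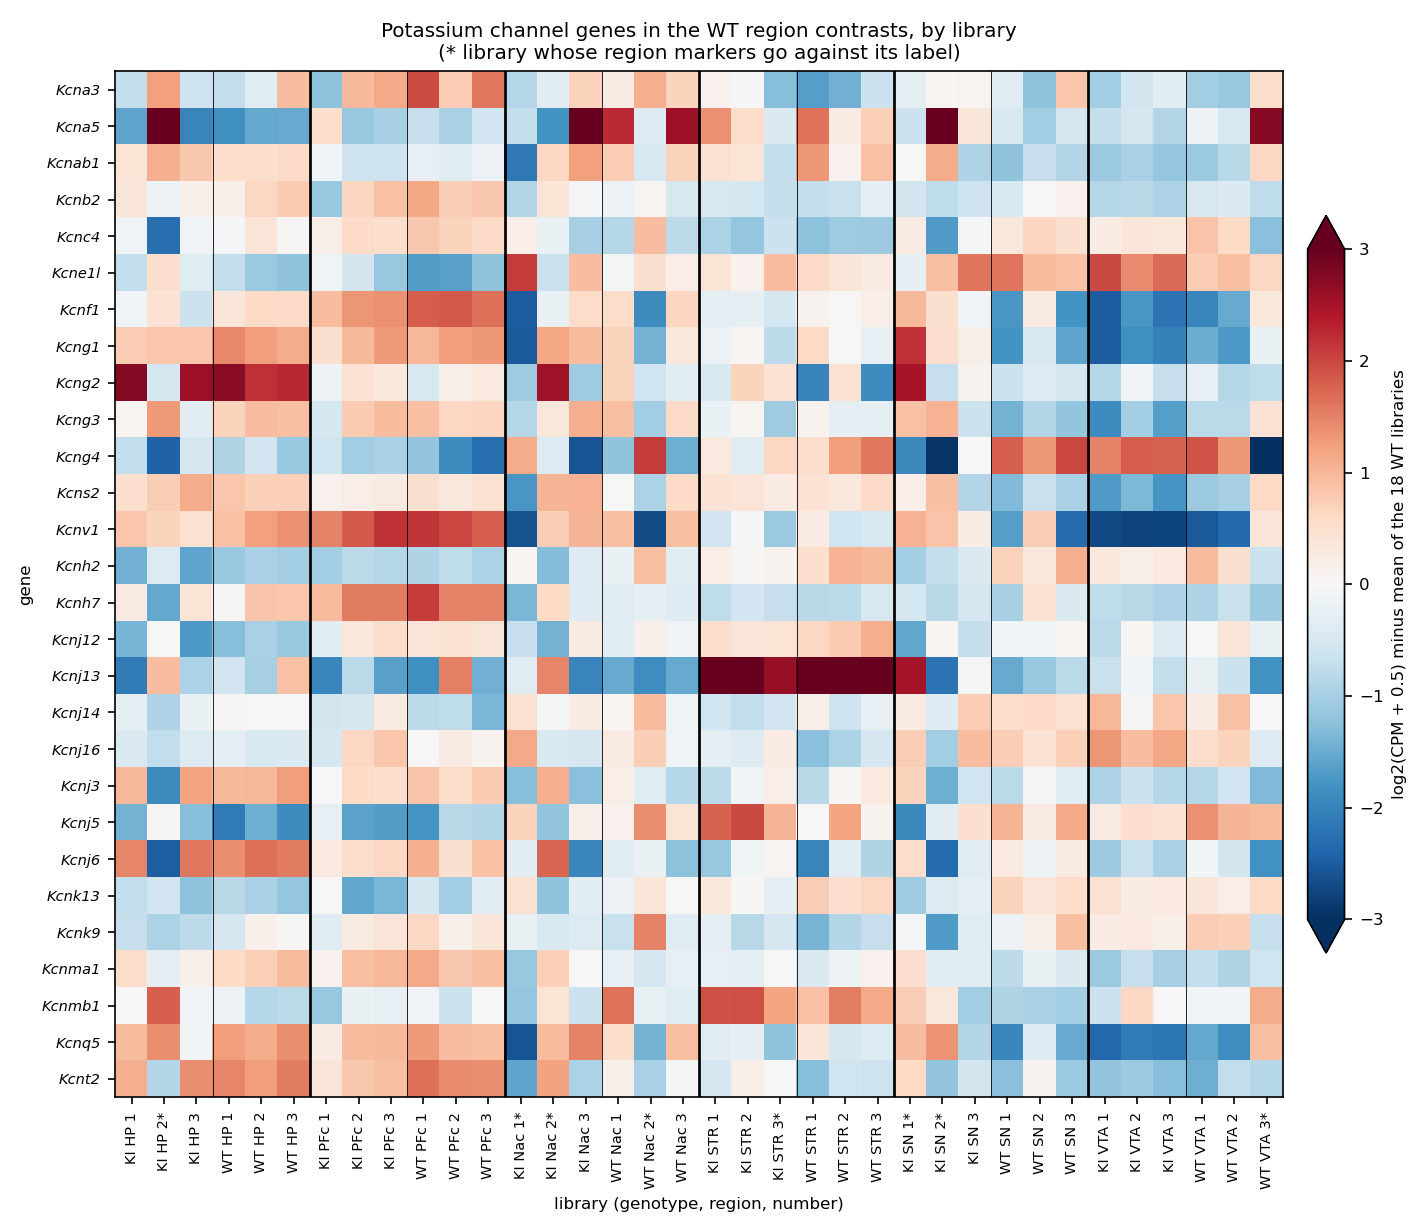
Level of genes named in the WT region contrasts (rows) in each of the 36 libraries (columns, KI left of WT in each region), as log2(CPM + 0.5) minus the mean of the 18 WT libraries, with colours cut at -3 and 3 and asterisks on the 8 libraries whose region markers go against their label. Kcnj13 is high in the STR libraries and Kcng2 in HP, while starred libraries such as KI HP 2 depart from the others of their region.

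The promoters of 6 genes on which these region and genotype results turn are shown, as the 150 bases before a transcription start listed by RefSeq (GRCm38.p6), 5′ to 3′ on the strand of the gene. The genes are the forebrain-high Kcnj4 and Kcnip2, Kcng4 and Kcnj5, which were high in the WT midbrain, and Kcnh2 and Kcnd3, which had the lowest adjusted p-values between genotypes. The stretches are chr15:79505242-79505391 (minus) for Kcnj4, chr19:45816064-45816213 (minus) for Kcnip2, chr8:119635681-119635830 (minus) for Kcng4, chr9:32344345-32344494 (minus) for Kcnj5, chr5:24329592-24329741 (minus) for Kcnh2 and chr3:105451740-105451889 (plus) for Kcnd3. Capitals mark the GC box, GGGCGG or its reverse CCGCCC.
Kcnj4: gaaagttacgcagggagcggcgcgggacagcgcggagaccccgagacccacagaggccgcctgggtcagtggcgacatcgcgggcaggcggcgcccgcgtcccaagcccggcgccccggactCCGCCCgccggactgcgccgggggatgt
Kcnip2: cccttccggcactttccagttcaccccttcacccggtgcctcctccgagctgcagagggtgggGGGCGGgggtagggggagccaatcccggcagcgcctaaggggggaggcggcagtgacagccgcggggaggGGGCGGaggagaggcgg
Kcng4: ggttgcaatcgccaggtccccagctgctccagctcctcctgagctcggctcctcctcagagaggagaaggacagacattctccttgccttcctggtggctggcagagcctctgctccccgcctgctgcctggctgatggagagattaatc
Kcnj5: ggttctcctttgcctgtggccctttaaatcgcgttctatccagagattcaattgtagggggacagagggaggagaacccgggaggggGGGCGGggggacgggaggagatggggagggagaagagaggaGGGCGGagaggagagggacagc
Kcnh2: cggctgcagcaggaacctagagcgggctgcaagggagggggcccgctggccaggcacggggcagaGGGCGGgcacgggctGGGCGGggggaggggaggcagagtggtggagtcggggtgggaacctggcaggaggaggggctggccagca
Kcnd3: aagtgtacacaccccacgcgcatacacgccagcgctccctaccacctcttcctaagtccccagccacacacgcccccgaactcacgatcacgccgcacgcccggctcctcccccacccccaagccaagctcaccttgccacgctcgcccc
The listed start lies 7270 bases inside the annotated gene for Kcnj4, 22093 bases inside for Kcnh2, 359 for Kcnip2 and 36 for Kcnj5, so other starts exist for these genes. The GC box stood in the stretches of Kcnj4, Kcnip2, Kcnj5 and Kcnh2 and not in those of Kcng4 and Kcnd3. RefSeq lists such a start for 66 of the 90 genes. Within 250 bases before it, searched on both strands, the GC box was present in 32 of the 66 (48.5%), beside 33.0% of 27025 promoters. TATAAA was present in 2 (3.03%, beside 13%), the E box CACGTG in 4 (6.06%, beside 6.04%) and the CRE TGACGTCA in 0 (beside 1.6%). The median GC content was 58.8% for the 66, beside 52.0% for all promoters. The motif counts were not adjusted for GC content.

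Region differences called in WT had the same sign in KI libraries in HP, PFc and VTA. Without the 8 libraries, the sign in KI was that of WT for 44 of the 44 genes called in WT HP, 44 of 44 in PFc and 42 of 42 in VTA. The share over all genes called in WT was 96.7% in HP, 88.5% in PFc and 97.7% in VTA. In Nac 30 of 33 had the same sign (87.3% of all genes), in STR 30 of 33 (88.9%) and in SN 29 of 35 (82.0%). KI libraries themselves called 37 of these genes in VTA, 29 in HP, 25 in PFc, 21 in Nac, 11 for STR and 0 for SN. KI Nac and KI SN then rest on 1 library each. Kcnj4 was lower in KI VTA (log2 difference -4.37), as were Kcnh3 (-4.40) and Kcnip2 (-3.39), relative to the other KI regions. With all 36 libraries, only 3 of the 14 genes called in WT SN kept their sign in KI SN, beside 34.1% of all genes. Kcng1 and Kcna2 were among the 6 with opposite sign in SN after the 8 libraries were left out.

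**Figure D3:**
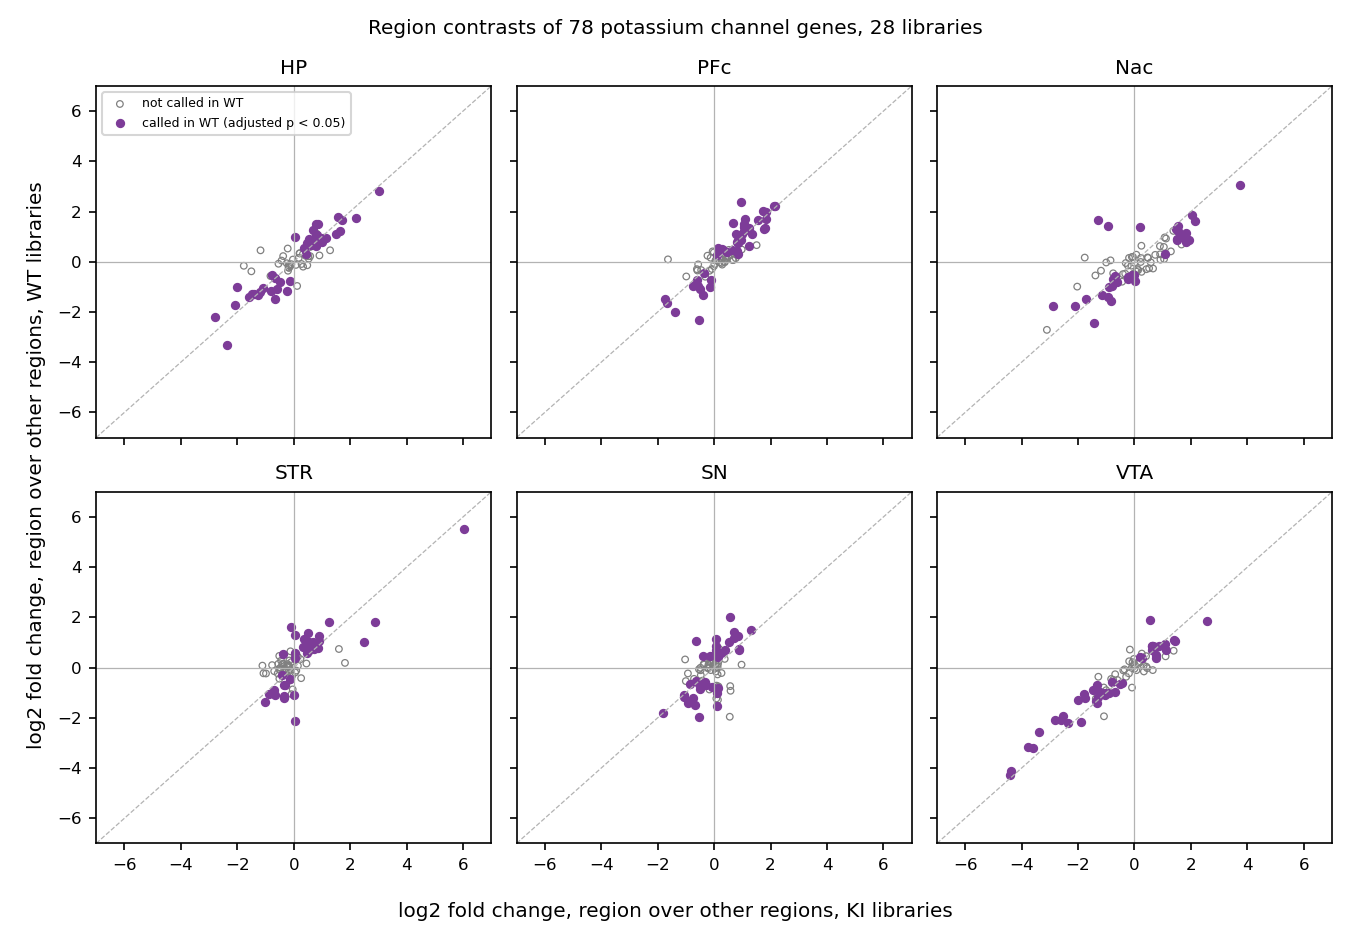
Log2 fold change of each region over the other regions in KI libraries (horizontal) against WT libraries (vertical) for 78 potassium channel genes, from the 28 libraries without those that went against their label; filled points were called in WT and the dashed line marks equal values. Points lie near the line in VTA, HP and PFc, with Pearson correlations of 0.95, 0.88 and 0.86 across genes, and scatter most in SN, at 0.51, where KI has 1 library.

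Transcript use of Kcnk9, the TASK-3 leak channel gene, also differed by region. This gene and the next were chosen after their values were seen, and the shares are estimates of the authors' transcript counting, with no test. Transcript NM_001033876 took 47.8%, 81.6% and 42.8% of Kcnk9 counts in KI HP and 41.5%, 42.1% and 45.0% in WT HP. In VTA it took 89.4%, 87.6% and 85.0% in KI and 84.4%, 86.5% and 90% in WT libraries. Only KI HP 2, with its striatal markers, lay outside the range of the other HP libraries. For Kcnip4, a KChIP gene, NM_001199242 took 74.9%, 38.8% and 88.3% in KI HP and 14.7%, 21.5% and 21.8% in KI VTA, and 80.8%, 86.9% and 84.1% in WT HP and 27.6%, 12.3% and 53.1% in WT VTA. The 90 genes had 470 listed transcripts, 23 of the genes having 1. Such estimates can be unstable: XM_006501055 took 84.8%, 53.0% and 0.1% of Kcna2 in the 3 WT HP libraries.

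Between genotypes, edgeR called 0 potassium channel genes in every region, and 0 genes of the whole table. At an unadjusted p under 0.05 SN had 28 of 76 genes (36.8%, beside 17.6% of all genes), STR 22 of 76 (28.9%, beside 10.8%) and VTA 18 of 75 (24%, beside 13%). PFc had 14 of 74 (18.9%, beside 18.1%), HP 13 of 72 (18.1%, beside 14.2%) and Nac 3 of 76 (3.95%, beside 1.02%). DESeq2 called 15 in SN (19.7%, beside 6.85% of all genes), 4 in STR (5.26%, beside 1.45%) and 2 in VTA (2.67%, beside 1.44%). It called 1 in PFc (1.35%, beside 2.81%), 1 in HP (1.39%, beside 2.04%) and 0 in Nac (beside 0.014%). At a q-value under 0.05, the authors' deposited table, also from DESeq2, has 6 higher and 9 lower in SN and 4 lower in STR. It has 2 lower in HP, 1 lower in PFc, 1 higher in VTA and 0 in Nac. The share of all genes called in that table was not computed, so these counts show nothing particular to the potassium channel genes. Log2 fold changes were below 0 for 55 of 76 genes in STR (72.4%, beside 49.0% of all genes) and 54 of 75 in VTA (72.0%, beside 51.1%). The shares were 63.9% in HP (beside 49.8%), 58.1% in PFc (beside 46.6%), 57.9% in Nac (beside 46.4%) and 56.6% in SN (beside 48.3%). Medians ran from -0.25 in STR to -0.07 in Nac, where the medians of all genes lay between -0.01 and 0.03. Fewer cells of a type and less RNA per cell cannot be told apart in such tissue samples.

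**Figure D4:**
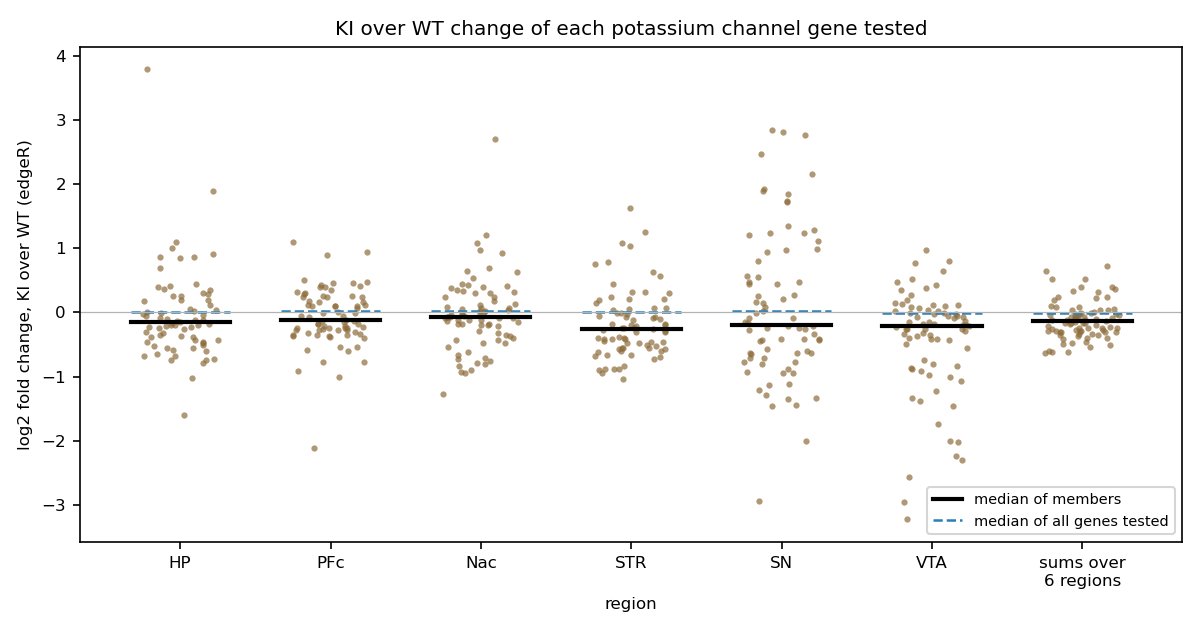
Log2 fold change, KI over WT, of each potassium channel gene tested in each region and in the sums over the 6 regions (points, edgeR, all libraries), with the median of these genes (black bar) and of all genes tested (dashed blue). The black bar lies below the blue line in every column, by the most in STR, and the spread is widest in SN.

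Summing the 6 regions per library number gave 3 KI and 3 WT sums, in which edgeR called 0 genes at the adjusted threshold (28 of 82 at an unadjusted p under 0.05, or 34.1%, beside 19.9% of all genes). DESeq2 called 19, with 2 higher and 17 lower (23.2%, beside 8.65% of all genes). Log2 fold changes were below 0 for 61 of 82 genes (74.4%, beside 50.8%). Among the genes with the lowest adjusted p were Kcnh2, Kcnd3, Kcna2 and Kcnc2, all negative. Kcnh2 (chromosome 5, 24319589 to 24351684) encodes an ERG channel, Kcnd3 (chromosome 3, 105451890 to 105674002) the Kv4.3 pore of transient currents, and Kcna2 (chromosome 3, 107090883 to 107115005) the Kv1.2 pore found along axons. Kcnc2 encodes a Kv3 pore, of a kind known from fast-spiking neurons. By edgeR the log2 fold change was -0.62 for Kcnh2 (SE 0.0736, adjusted p = 0.0543), -0.39 for Kcnd3 (SE 0.0613, adjusted p = 0.0543) and -0.53 for Kcna2 (SE 0.0865, adjusted p = 0.056). For Kcnc2 edgeR gave -0.51 (SE 0.103, adjusted p = 0.0739). DESeq2 called these 4 lower and Kcnmb4 (0.34) and Kcne1l (0.53) higher. All 3 Kv3 genes tested were below 0, with a median of -0.51, as were 5 of 6 Kv1 genes, with a median of -0.33. Both subfamilies were chosen after their values were seen. In a fit of all 36 libraries with a term for region, edgeR called 6, or 7.59%, beside 9.47% of all genes: Kcna2, Kcnh2, Kcna6, Kcnd3 and Kcnj11 lower and Kcne1l higher. That fit takes libraries of different regions as independent.

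By library, Kcnh2 had 57.6, 51.4 and 54.3 CPM in KI STR, against 71.1, 103 and 98.4 CPM in WT STR. In SN it had 24.6, 30.4 and 37.3 CPM in KI, against 81.5, 63.9 and 107 CPM in WT. The genotypes did not overlap in either region. PFc showed no such gap, with 24.3, 29.0 and 27.4 CPM in KI and 26.9, 29.4 and 25.8 CPM in WT. In HP Kcnd3 had 88.8, 75.3 and 78.2 CPM in KI, against 114, 118 and 134 CPM in WT. In PFc Kcnd3 had 45.6, 82.6 and 89.5 CPM in KI and 134, 111 and 132 CPM in WT. In STR its genotypes overlapped, and the log2 fold change was -0.03 (SE 0.197). Kcna2 had 147, 139 and 185 CPM in KI STR, against 198, 216 and 271 CPM in WT STR, and 124, 143 and 134 CPM in KI SN, against 253, 289 and 380 CPM in WT SN. Its log2 fold change was below 0 in all 6 regions, and the genotypes overlapped in the other 4. Genotype by region passed edgeR's test for 0 of 79 genes (lowest adjusted p = 0.563), and DESeq2 called 0, beside 0.228% of all genes, so no such difference between regions was shown. The lowest adjusted p was shared by Kcng1, Kcnj11 and Kcng3, among other genes. Kcng1, for example, had 82.9, 26.0 and 20.4 CPM in KI SN against 4.83, 12.8 and 5.75 CPM in WT SN. In VTA it had 2.79, 4.65 and 4.06 CPM in KI against 6.09, 5.09 and 15.6 CPM in WT. Its KI libraries lay above all WT libraries in SN and below them in VTA, though KI SN 1, KI SN 2 and WT VTA 3 went against their labels.

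**Figure D5:**
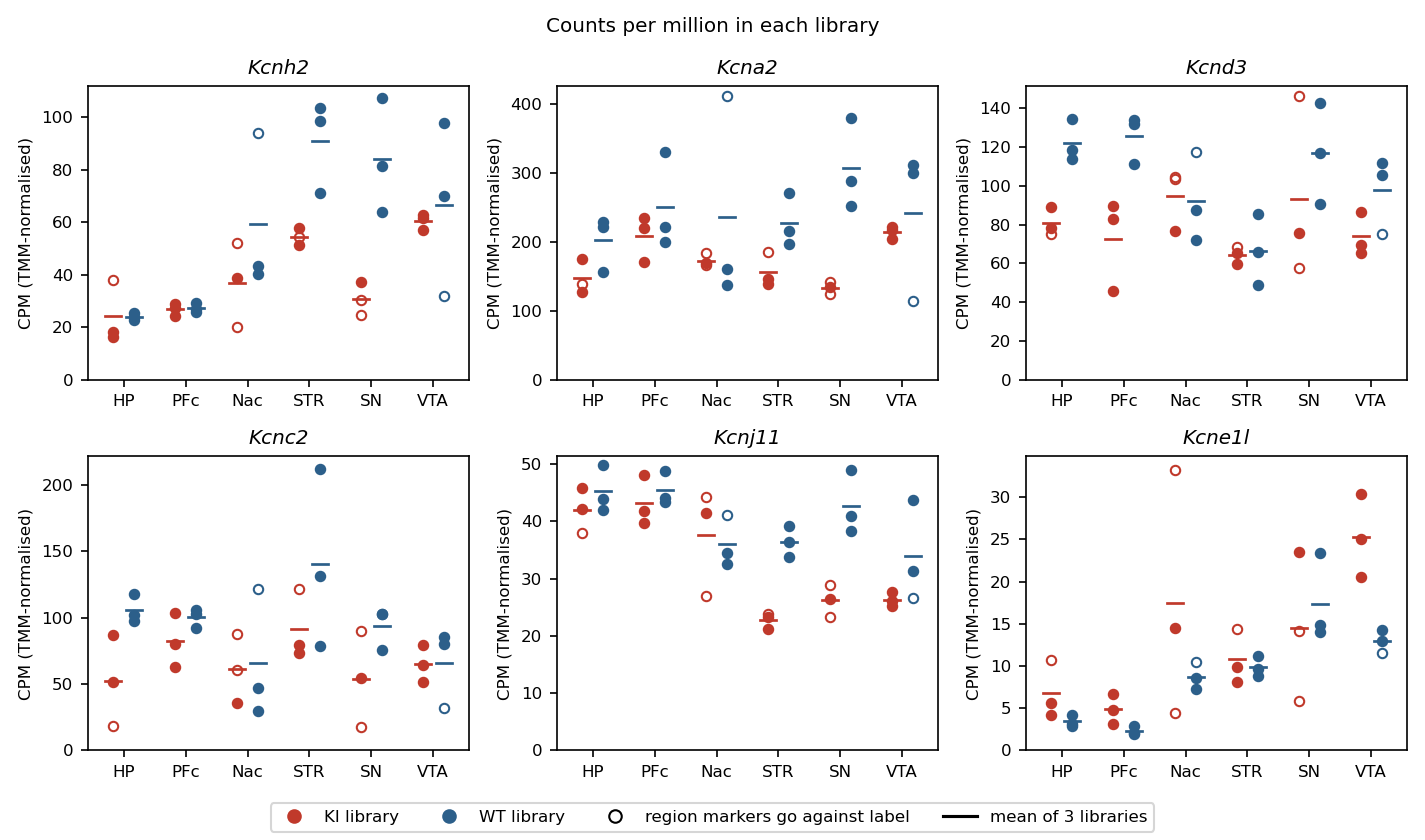
CPM of Kcnh2, Kcna2, Kcnd3, Kcnc2, Kcnj11 and Kcne1l in every library by region, KI left of WT, with bars for means of 3 libraries and open points for libraries whose region markers go against their label. Kcnh2 is lower in every KI than in every WT library of STR and SN, and Kcne1l is higher in every KI library of VTA.

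All 4 DESeq2 calls in STR were lower in KI. Kcns1, a silent Kv subunit, had 6.92, 9.01 and 8.21 CPM in KI and 13.7, 14.4 and 16.7 CPM in WT STR (DESeq2 log2 fold change -0.88, SE 0.207, adjusted p = 0.00388). Kcnj11, the Kir6.2 pore of ATP-sensitive channels, had 21.2, 23.4 and 23.8 CPM in KI and 39.3, 33.8 and 36.3 CPM in WT STR (-0.67, SE 0.155, DESeq2 adjusted p = 0.00301). Kcnk1 had 117, 122 and 106 CPM in KI and 165, 153 and 167 CPM in WT STR (-0.48, SE 0.127, DESeq2 adjusted p = 0.0154). Kcnh2 was called too (-0.73, SE 0.179, DESeq2 adjusted p = 0.00687). In each, no KI library reached the lowest WT library. By edgeR none passed, the smallest adjusted p being 0.265. Without KI STR 3, DESeq2 called 8, with Kcnj5 the only rise and Kcns3, Kcng4, Kcns1, Kcnh2, Kcnj11 and Kcna2 among the falls (beside 1.5% of all genes). Fast-spiking interneuron markers, 5 of 5 found, summed to 1045 to 1323 CPM in KI STR and 2086 to 2585 CPM in WT STR. These were Pvalb, Syt2, Cplx1, Gad1 and Tac1, of which Tac1 is also in the striatal list. The striatal list summed to 657 to 3095 CPM in KI STR and 2272 to 7437 CPM in WT STR, so the genotypes overlapped. The summed choroid plexus markers given above were lower in KI STR, though their mean log2(CPM + 1) levels overlapped, at 5.82 to 7.41 in KI and 6.90 to 7.80 in WT. On that scale neuron markers stood at 8.88 to 8.99 in KI STR and 9.06 to 9.22 in WT STR, and astrocyte markers at 8.32 to 8.57 in KI and 8.08 to 8.31 in WT. Oligodendrocyte markers (9 of 9 found) summed to 18400 to 25400 CPM in KI and 13210 to 16000 CPM in WT STR. None of these lists had a gene at 0, and their part in the channel results was not tested.

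SN held the most DESeq2 calls, 6 higher and 9 lower, but only KI SN 3 of its KI libraries fitted the label. Kcnip2 had 254, 244 and 74.1 CPM in KI SN against 18.8, 52.7 and 12.8 CPM in WT SN (2.77, SE 0.561, DESeq2 adjusted p = 0.000125). The value of 52.7 CPM belongs to WT SN 2, which also carried cortical markers. Kcng1 (2.47), Kcnq5 (1.89), Kcng3 (1.85) and Kcnk2 (1.35) were also called higher. Kcng4 had 3.38, 1.43 and 14.5 CPM in KI SN against 51.7, 36 and 59.4 CPM in WT SN (-2.93, SE 0.65, DESeq2 adjusted p = 0.000636). Kcnh2 (-1.46), Kcna2 (-1.21) and Kcnk13 (-1.13) were called lower. With KI SN 3 as the only KI library, DESeq2 called 0 higher and 5 lower (beside 1.42% of all genes), among them Kcng4, Kcna1, Kcna2 and Kcnh2, and none of the 6 rises. That fit takes the spread from the WT libraries. KI SN 3 itself had a striatal marker level of 6.32 on the log2(CPM + 1) scale, against 4.64 to 4.67 in WT SN, and a hindbrain level of 0.81, against 2.14 to 3.69. Fast-spiking markers summed to 1102 to 1268 CPM in KI SN and 1919 to 2500 CPM in WT SN, and hindbrain markers to 0.992 to 9.32 CPM in KI, with Hoxb2 among the genes at 0, and 57.9 to 242 CPM in WT. Their part was not tested.

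In VTA, Kcne1l had 30.4, 20.6 and 25 CPM in KI, against 12.9, 14.3 and 11.5 CPM in WT, with no overlap. DESeq2 called it higher (0.96, SE 0.221, adjusted p = 0.00508), and edgeR did so without WT VTA 3 (0.90, SE 0.168, adjusted p = 0.0314). That fit called 2 genes higher and 6 lower, or 10.4%, beside 5.72% of all genes. Kcnmb4 was the other rise, at 13, 15.2 and 13 CPM in KI and 8.49, 9.22 and 31.3 CPM in WT, of which the last is WT VTA 3 (0.64, SE 0.139, edgeR adjusted p = 0.0417 without it). With WT VTA 3 its log2 fold change was -0.26. Among those lower without WT VTA 3 were Kcnj5 (-0.89), Kcnd3 (-0.56), Kcna2 (-0.51), Kcnk3 (-0.48) and Kcnk9 (-0.48), and edgeR called none of them with all 6 libraries. Kcnk3, the TASK-1 leak channel gene, had 28.7, 33.7 and 30.7 CPM in KI against 45.5, 41.4 and 16.0 CPM in WT VTA, the last being WT VTA 3. Oligodendrocyte markers summed to 24800 to 36200 CPM in KI VTA and 13340 to 18380 CPM in WT VTA, and endothelial markers to 532 to 567 CPM in KI and 322 to 375 CPM in WT. Their part was not tested.

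Calls in HP, PFc and Nac were few. Kcnd3 was called lower in HP by DESeq2 (-0.59, SE 0.141, adjusted p = 0.00678). Without KI HP 2, edgeR called Kcng3 (-0.95) and Kcnf1 (-0.88) lower, both at an adjusted p of 0.0477, which is 2.70% of the genes tested, beside 0.420% of all genes; DESeq2 then called 9, beside 5.99%. Kcnf1 had 81.2, 121 and 56.6 CPM in KI HP against 115, 135 and 134 CPM in WT HP, and the value of 121 CPM belongs to KI HP 2. Oligodendrocyte markers summed to 9654 to 12820 CPM in KI HP and 3931 to 4906 CPM in WT HP, and neuron markers (4 of 4 found) to 2317 to 4544 CPM in KI and 4726 to 5433 CPM in WT. Their part was not tested. In PFc Kcnt2, a sodium-activated channel gene, had 19.1, 25.9 and 27.8 CPM in KI against 46.9, 39.5 and 39.1 CPM in WT (-0.77, SE 0.203, DESeq2 adjusted p = 0.0141). Without KI PFc 1, edgeR called Kcnt2 (-0.62), Kcnd3 (-0.53) and Kcna6 (-0.51) lower and Kcnj16 (0.63) higher, or 5.33%, beside 3.85% of all genes, and DESeq2 called 11, beside 10.3%. Cortical markers (8 of 8 found) summed to 694 to 1427 CPM in KI PFc and 1490 to 1602 CPM in WT PFc, and microglial markers (8 of 8) to 826 to 1006 CPM in KI and 477 to 686 CPM in WT. Choroid plexus markers had a mean level of 1.34 to 1.80 on the log2(CPM + 1) scale in KI PFc and 1.88 to 4.09 in WT PFc. Their part was not tested. In Nac, DESeq2 called 2 genes higher, among them Kcnq3 (0.73), a Kv7 gene, once KI Nac 1, KI Nac 2 and WT Nac 2 were left out, beside 0.518% of all genes. KI Nac is then 1 library, so the spread comes from the 2 WT libraries alone.

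Of 71 genes tested in all 6 regions, 7 had a log2 fold change below 0 in each: Kcna1, Kcna2, Kcna6, Kcnc2, Kcnip4, Kcnj9 and Kcnk3 (9.86%, beside 5.35% of all genes). Of the 71, Kcnk6 alone was above 0 in each (1.41%, beside 7.69%). Genes whose 3 KI libraries all lay on the same side of the 3 WT libraries numbered 4 higher and 13 lower in STR (22.4%, beside 17.7% of all genes), 8 and 17 in SN (32.5%, beside 23.9%), and 3 and 16 in VTA (25%, beside 23.4%). In HP they numbered 5 and 11 (21.9%, beside 23.8%), in PFc 10 and 10 (27.0%, beside 28.4%) and in Nac 0 and 2 (2.63%, beside 4.23%). Of 78 tested in at least 1 region, 21 lay lower in KI in 2 or more regions (26.9%, beside 15.3% of all genes) and 6 higher (7.69%, beside 12.2%). Another 10 lay apart in opposite directions in different regions, among them Kcnk1, higher in KI PFc and lower in KI STR and SN; the interaction test of these 10 gave edgeR adjusted p-values of 0.563 to 0.67. The summed level of the 90 genes was 3857, 4085 and 3964 CPM in KI STR against 4994, 4556 and 5561 CPM in WT STR. In VTA it was 3566, 3524 and 3506 CPM in KI against 4150, 4006 and 4368 CPM in WT. The genotypes did not overlap in these regions and overlapped in the other 4.

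Partners of potassium channels outside the Kcn symbols were called between regions, and by edgeR with all libraries none was called between genotypes. Of 25 such genes listed, 24 were tested, and 15 differed in WT HP by edgeR, 9 higher and 6 lower, where 34.4% of all genes did. Lgi1, which binds Kv1 complexes, was higher there (1.05), while the HCN pacemaker genes Hcn4 (-2.57) and Hcn2 (-0.94) were lower. In WT PFc 10 differed, 8 higher and 2 lower, beside 28.5% of all genes, with Dpp10, a Kv4 partner, at 1.25. Between genotypes edgeR called 0 partners in every region and in the sums. DESeq2 called 6 in the sums, 1 higher and 5 lower, beside 8.65% of all genes. Abcc9, a subunit of ATP-sensitive channels that also marks pericytes, was higher (0.41), and the falls included Hcn4 (-0.56), Cntn2 (-0.43), Dpp10 (-0.34) and Amigo1 (-0.32).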

How the data were processed

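Libraries were made from brain tissue with a SMARTER mRNA-seq kit, per the labels' protocols, and the genome build was GRCm38.p6, per the submitters' processing notes. For alignment, counting and strand, tools and settings were not given in the sources used here, so reads of overlapping or near-identical genes may have been split in unknown ways. Estimated counts were deposited by the authors for genes and transcripts; 9.9% of gene values were not whole, and all were rounded before testing. The authors also deposited TPM per gene, used only to compare genes. The authors' deposited table of comparisons holds log2 fold changes and q-values from DESeq2. Other per-sample columns, 180 in number, were not used.

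Genes were filtered by filterByExpr, TMM-normalised and tested on the whole table with the quasi-likelihood test of edgeR 4.0.16 (R 4.3.3), with Benjamini-Hochberg adjustment over all genes tested and a threshold of 0.05; DESeq2 1.42.0 was an alternative. KI and WT were compared within each region on its 6 libraries, WT regions on 18 libraries, and the interaction on 36. SE is the log2 fold change over the square root of F. Alternatives were other size factors, no filter, a replicate block, region as a term, and leaving out libraries. Tests of genotype in STR, genotype in the sums and WT HP over other regions were first tried on simulated data with known changes. False calls made up 3.54% to 5.88% of calls by edgeR and 6.03% to 11.2% by DESeq2. In the simulated data every gene had the same dispersion, and no library departed from its group as the 8 libraries do. These rates therefore need not hold for the real libraries. The other fits were not tried in this way.

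Named genes were, per comparison, up to 5 rises and 5 falls among called genes averaging 1 or more on the log2 CPM scale, the 5 lowest adjusted p-values for the sums and the interaction, and the highest TPM per subfamily. Where edgeR called none, DESeq2 calls were named. Results of a few genes picked by this rule are left out. The genes, marker and partner lists and this rule were chosen with earlier results of these data known. Same-numbered libraries of the 2 genotypes mostly did not deviate together (2 of 18 pairs correlated above 0.1), so numbers were not taken as pairs. Within a genotype, same-numbered libraries of different regions correlated above 0.1 in 17 of 45 WT pairs and 11 of 45 KI pairs. The tests of regions and of the interaction take these libraries as independent. Figures were drawn with matplotlib 3.10.9 under Python 3.11.15.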

Additional observations from a re-analysis of the deposited data

How the results depend on the processing

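The numbers of genes called depended on the test and on which libraries entered. Between genotypes, where edgeR called 0, DESeq2 called 19 in the sums, 15 in SN and 4 in STR. It also called 2 in VTA, 1 in PFc and 1 in HP. For regions, DESeq2 called 6 in WT Nac (beside 2.85% of all genes) and 23 in WT SN (beside 15.7%). Its counts were 18 in WT VTA (beside 13.2%) and 38 between KI regions (beside 28.3%). Without the 8 libraries, edgeR called 2 in HP and 8 in VTA between genotypes, and 44 in WT PFc, 33 in WT Nac, 33 in WT STR, 35 in WT SN, 42 in WT VTA and 63 between KI regions. DESeq2 without them, chosen after seeing the data, called 20 in VTA, 9 in HP, 8 in STR, 5 in SN and 2 in Nac, and 11 in PFc without KI PFc 1. With region as a term edgeR called 6 over 36 libraries and 14 over 28 (beside 16.7% of all genes). Other size factors and no filter on low counts moved no count by more than 1.5 times. The cause of these differences was not tested.

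Same-numbered libraries of the 2 genotypes correlated at -0.55 to 0.56, with 2 of 18 pairs above 0.1. With the replicate block, WT Nac had 1 call and Kcnmb4 in VTA reversed to 0.026; between genotypes the block called 0 in every region.

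Leaving out 1 library at a time gave, by edgeR, 0 to 2 calls in HP, 0 to 4 in PFc (4 without KI PFc 1, where DESeq2 called 11), 0 to 0 in Nac, STR and the sums, 0 to 8 in SN (8 without KI SN 3) and 0 to 8 in VTA (8 without WT VTA 3). For the interaction edgeR gave 0 to 0. It gave 40 to 61 calls between WT regions, 22 to 38 in WT HP, 14 to 34 in WT PFc, 0 to 6 in WT Nac, 9 to 24 in WT STR, 1 to 29 in WT SN, 2 to 30 in WT VTA and 7 to 36 between KI regions. The share of all genes called was not set beside these ranges, so they show only how the counts moved. Kcnmb4 in VTA, at -0.26 with all libraries, reversed to 0.64 without WT VTA 3, by edgeR and by DESeq2, and ran from -0.572 to 0.64 over the libraries left out. Without WT VTA 1 or WT VTA 2, Kcna2 in VTA reversed to 0.013 and 0.038 (range -0.507 to 0.038) and Kcnk3 to 0.115 and 0.003 (range -0.483 to 0.115).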
